A study of Caenorhabditis elegans with 2 samples.

Results

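The thresholded list of SNPC-3.4 binding sites held 2101 regions, of which 2075 were nuclear and 26 mitochondrial. Of the nuclear regions, 293 lay between genes and away from annotated promoters, and these are described here. A region was included when its summit, the position of highest signal given by the authors, lay over no annotated gene other than a piRNA gene. It also had to lie more than 500 bp from every protein-coding 5' end. Finally, it had to lie more than 250 bp from the 5' end of every tRNA, snRNA, snoRNA, rRNA, piRNA and spliced leader (sls-) gene. No value of signal entered this choice beyond the authors' own threshold. Chromatin bound by the protein was immunoprecipitated and sequenced (ChIP-seq) in 2 biological replicates of 1 group, without a second condition. Both replicates were whole young adult hermaphrodites of Caenorhabditis elegans strain YL497, a transgenic line with a C-terminal GFP-FLAG tag on SNPC-3.4 (T02C12.2). An anti-GFP antibody was used, and chromatin was sonicated. The worms were not separated by tissue, so a site bound in few cells and a site bound weakly in many cannot be told apart. Signal is the authors' value per region, without a stated scale, and it ranks regions within 1 list. No list gives reads per region, so the depth behind each signal is unknown. All intervals below are 95% and cover counting error over regions only. The replicate lists also feed the pooled list, so a match between them is not independent support.

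SNPC-3.4 is related to a subunit of SNAPc, the complex that activates genes of small nuclear RNAs. SNAPc binds a short proximal sequence element just upstream of snRNA genes and recruits RNA polymerase II or III to them. In nematodes, proteins of this complex also act at spliced leader, snoRNA and piRNA genes.

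The sequences that best show what several of these sites hold are printed first. The commonest 8-base word 20 to 80 bp upstream of annotated snRNA genes was CGGAACCC, present at 26 of 99 of them. It was read from the genome and not from the peaks. Its centre lay 52.5 to 70.5 bp upstream of the snRNA 5' ends, with a median of 57.5 bp. In each sequence below, 201 bases centred on the summit are written 5' to 3' on the plus strand of ce11, from the RefSeq genome. Capitals mark CGGAACCC, or its reverse complement GGGTTCCG, and in the last set GCAAACAC and AAAGGCGC. TGTCGG, a word described further below, was left in lower case. The first set is a cluster of 3 sites at and beyond K08B5.8, an annotated noncoding RNA gene on X.
Site before K08B5.8, chrX:16564595-16564795: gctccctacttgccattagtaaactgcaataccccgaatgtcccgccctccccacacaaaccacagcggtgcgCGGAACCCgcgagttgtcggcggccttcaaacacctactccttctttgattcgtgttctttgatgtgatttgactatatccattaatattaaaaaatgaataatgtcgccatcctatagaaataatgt
Second site of the cluster, chrX:16565849-16566049: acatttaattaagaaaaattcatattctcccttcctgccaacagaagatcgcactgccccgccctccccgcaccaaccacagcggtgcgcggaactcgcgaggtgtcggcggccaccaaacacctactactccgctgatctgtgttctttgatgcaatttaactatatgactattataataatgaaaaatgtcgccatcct
Last site of the cluster, chrX:16566452-16566652: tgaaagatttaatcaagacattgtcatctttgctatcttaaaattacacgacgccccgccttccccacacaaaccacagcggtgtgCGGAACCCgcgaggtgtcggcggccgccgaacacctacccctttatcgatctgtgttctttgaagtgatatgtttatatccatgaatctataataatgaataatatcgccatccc

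The next set holds 3 sites on different chromosomes whose sequence resembles the same snoRNA gene, Y51H4A.940.
Site 2082 bp upstream of alg-1, chrX:13946928-13947128: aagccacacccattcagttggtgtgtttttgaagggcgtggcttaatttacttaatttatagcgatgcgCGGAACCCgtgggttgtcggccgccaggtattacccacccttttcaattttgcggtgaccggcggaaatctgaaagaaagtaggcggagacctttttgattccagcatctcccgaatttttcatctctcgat
Site 596 bp downstream of srh-63, chrIV:14525693-14525893: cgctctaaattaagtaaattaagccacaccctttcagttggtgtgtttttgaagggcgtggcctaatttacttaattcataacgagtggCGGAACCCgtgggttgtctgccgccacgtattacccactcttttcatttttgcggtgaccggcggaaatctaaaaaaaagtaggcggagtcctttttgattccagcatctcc
Site 257 bp from W07G1.23, chrII:13946589-13946789: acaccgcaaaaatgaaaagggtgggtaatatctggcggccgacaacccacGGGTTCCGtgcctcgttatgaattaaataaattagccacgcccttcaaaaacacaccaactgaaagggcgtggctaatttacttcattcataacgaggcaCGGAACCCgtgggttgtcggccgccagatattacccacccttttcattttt
The last set holds, for contrast, the site of highest signal with GCAAACAC in capitals, a site at a divergent gene pair with AAAGGCGC in capitals, and a site between converging 3' ends. CGGAACCC was in none of these 3 windows, but TGTCGG stands in the window upstream of egrh-2.
Site upstream of egrh-2, chrIV:991135-991335: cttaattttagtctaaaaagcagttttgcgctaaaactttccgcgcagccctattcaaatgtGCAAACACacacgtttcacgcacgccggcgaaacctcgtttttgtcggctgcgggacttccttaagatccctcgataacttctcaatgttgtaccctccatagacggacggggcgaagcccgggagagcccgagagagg
Site between rod-1 and pycr-4, chrIV:7477816-7478016: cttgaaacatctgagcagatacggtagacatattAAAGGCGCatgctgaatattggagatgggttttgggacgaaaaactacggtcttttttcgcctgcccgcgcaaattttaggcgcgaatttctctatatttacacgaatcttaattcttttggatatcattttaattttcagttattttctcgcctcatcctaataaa
Site between the 3' ends of thoc-2 and rps-13, chrIII:6373878-6374078: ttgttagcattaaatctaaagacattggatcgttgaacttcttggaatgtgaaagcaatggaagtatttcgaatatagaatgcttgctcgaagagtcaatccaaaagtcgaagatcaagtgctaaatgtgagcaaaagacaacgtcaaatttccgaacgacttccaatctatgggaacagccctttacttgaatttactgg

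Sequence with the snRNA word recurred among the intergenic sites. CGGAACCC, on either strand and within 100 bp of the summit, was present at 15 of 293 intergenic sites (5.12%, Wilson interval 3.13 to 8.27%). It was present in 4 of 586 flanking windows of equal length at 400 to 600 bp (0.683%, 0.266 to 1.74%). In all sequence that meets the same position rule, here called eligible sequence, 0.252% of windows of that length held it. The word was found at 5.32% of peaks inside genes, 0.699% of protein-coding promoter peaks and 7.41% of peaks near small RNA 5' ends. Across the annotation it lay 20 to 80 bp upstream of 18 of 346 snoRNA genes, 0 of 612 tRNA genes and 5 of 19973 protein-coding genes. The share at intergenic sites was thus near that inside genes and above that at promoters.

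The 15 sites with CGGAACCC had a median signal of 66.2 (range 51.4 to 188), and 14 were among the top regions of replicate 1 but only 9 among those of replicate 2. Their median log2 ratio of replicate 2 over replicate 1 was 0.18. In the 222 sites that held neither this nor any of 4 other words described below, it was 0.76. Over the 257 intergenic sites found in both candidate lists it was 0.67. Among sites with the other words it was 0.35 for GCGAGACC, 0.46 for GCAAACAC, 0.69 for GTACGGTA and 0.70 for AAAGGCGC. These groups are small, and no difference was tested. The 15 sites with CGGAACCC were GC-richer, with a median of 47.8% against 37.8% in those 222 sites. Of the 15, 4 were on X and 5 lay in sequence of which under 50% of 31-base words occur once in the genome. How the authors placed reads from such sequence is not stated here. The word lay close to the summit: 12 of its 16 copies were centred within 50 bp, at a median distance of 30 bp. A further word, TGTCGG, was looked for within 20 bases after CGGAACCC once these sequences had been seen. It followed at 10 of the 15 sites, always after a gap of 6 bases, and can be read in the first set above. Several of these sites were alike beyond the word, as in the first 2 printed sets. The sites at chrV:20699019, chrV:5602525, chrV:8558992 and chrIV:6501410 also shared a longer stretch around it. The counts, their intervals and the constant gap therefore do not rest on unrelated sequences. TGTCGG also stood in printed windows without an exact CGGAACCC, at the second site of the cluster and upstream of egrh-2. Its share over all intergenic sites was not counted.

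Most copies of the word carried no peak. Eligible sequence held 346 copies of CGGAACCC, and 16 of them had a thresholded summit within 100 bp (4.62%, 2.87 to 7.38%). Among the 146 eligible copies followed by TGTCGG, 11 had one (7.53%, 4.26 to 13.0%). Among the 200 copies without it, 5 had one (2.50%, 1.07 to 5.72%), and the intervals of these shares overlap. A pooled candidate, thresholded or not, lay within 100 bp of 37 of the 146 and of 16 of the 200. How many copies lie in repeated sequence was not counted. Over all nuclear copies, 9.20% of those followed by TGTCGG had a summit (7.13 to 11.8%, 598 copies) and 2.92% of those not followed (2.03 to 4.19%, 959 copies). Inside genes the shares were 4.22% (2.48 to 7.09%) and 0.929% (0.398 to 2.16%). The intervals of these pairs did not overlap. The count over all nuclear copies includes the sites in which TGTCGG was first seen, so it is a description. It also mixes places. Near small RNA 5' ends lay 69 of the 598 followed copies and 58 of the 959 others. Near small RNA 5' ends, 39 of 127 copies had a summit (30.7%, 23.4 to 39.2%). There the shares were 34.8% with TGTCGG (24.6 to 46.6%) and 25.9% without it (16.3 to 38.4%). Near coding 5' ends they were 9.33% (4.59 to 18.0%) and 1.84% (0.628 to 5.27%). The intervals overlap at both of these places.

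The cluster on X was the strongest group of such sites. At chrX:16564695 the pooled signal was 188, with 79.6 in replicate 1 and 104 in replicate 2. This was the highest intergenic site on X, and its summit lay 35 bp upstream of the 5' end of K08B5.8. The word was centred 58.5 bp upstream of that 5' end, inside the range seen at snRNA genes. At chrX:16565949 the pooled signal was 158, with 65.1 and 87.2 in replicates 1 and 2. At chrX:16566552 it was 135, with 59.9 and 72.9. All 3 sites were thus high in both replicates, and the cluster spanned 1857 bp. K08B5.8 itself is annotated beside the first site only, and apart from piRNA genes no other gene lay between the remaining 2 summits and K08B5.6, 9887 bp beyond the last.

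All 3 sites of the cluster were similar to T21F2.3, a snoRNA gene of 171 bp elsewhere on X (chrX:16721943-16722113, minus strand). The matches covered 100 bp at 85.0% identity, 77 bp at 87.0% and 73 bp at 91.8%. If the matches are extended to the first base of the snoRNA gene, the summits lay 32, 46 and 46 bp upstream of it. On the same reckoning, CGGAACCC lay 55.5 bp upstream at the first site and 56.5 bp at the last. The middle site held no exact copy. T21F2.3 had a thresholded peak of its own (signal 164).

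The 3 sites similar to Y51H4A.940, a snoRNA gene of 153 bp (chrIV:16592791-16592943, minus strand), were weaker. The site at chrX:13947028, upstream of the Argonaute gene alg-1, matched 119 bp at 95.8% identity and had a signal of 72.5. The site at chrIV:14525793 matched 99 bp at 97.98% and had 55.6. The site at chrII:13946689 matched 45 bp at 95.6% and had 56.7, with no matching candidate in replicate 1 and 39.7 in replicate 2. All 3 matches began at the first base of the snoRNA gene, and in all 3 CGGAACCC was centred 59.5 bp before it. Y51H4A.940 itself had a peak with signal 64.0, without an exact copy of CGGAACCC 20 to 80 bp upstream. At the 3 sites 67.8%, 88.3% and 42.1% of the 31-base words were unique, so the last is the least certain placement.

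Over all intergenic sites, 19 were similar to an annotated tRNA, snRNA, snoRNA, rRNA or sls- gene (6.48%, 4.19 to 9.91%). A match was at least 30 bp at 80% identity or more within 150 bp of the summit. Windows moved 1000 bp to either side of the same summits gave 3 and 8 matches (1.02% and 2.73%). Among the 19, 16 matched a snoRNA, 2 a tRNA and 1 an snRNA. In 2 of the 19 the match was the end of a snoRNA gene next to the summit (C26C6.13 and W03B1.17). In 17 it was a gene elsewhere. The tRNA matches were short, at 30 and 34 bp. The snRNA match was at chrIV:13709213, 57 bp upstream of the 5' end of the noncoding RNA gene F52D4.1. There 67 bp matched the first 67 bases of the snRNA gene F56A12.5 at 88.1% identity. Its signal was 54.1, with no matching candidate in replicate 1 and 38.4 in replicate 2. Another 4 sites matched 33 to 57 bp of the snoRNA gene Y73F8A.1175, and they included chrI:8761136, the site of second highest signal. In 3 of those 4, under 50% of the 31-base words were unique.

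The intergenic sites were of low signal as a group. Their median signal was 64.8 (order-statistic interval 62.0 to 68.3, range 50.8 to 349), and that of the 1782 other nuclear peaks was 73.0. Peaks far from promoters but inside genes had 64.1, protein-coding promoter peaks 70.8 and peaks near small RNA 5' ends 83.9. Signals over 100 were found at 46 intergenic sites (15.7%) and 439 other nuclear peaks (24.6%). Of 6161 pooled candidates at positions that meet the rule, 293 were in the thresholded list (4.76%, 4.25 to 5.32%). Over all 29974 nuclear candidates the share was 6.92%. It was 1.94% inside genes, 13.4% at promoters and 27.4% near small RNA 5' ends.

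Recurrence in single replicates was close to that of peaks inside genes and lower in value than that of all other nuclear peaks together, with no test of a difference. A site was counted as matched when a summit among the 2101 highest regions of that replicate lay within 100 bp. In replicate 1, 188 of 293 sites were matched (64.2%, 58.5 to 69.4%), beside 69.3% of all nuclear peaks. In replicate 2, 221 were matched (75.4%, 70.2 to 80.01%), beside 81.9%. Both replicates matched 134 sites (45.7%), against 57.2% of other nuclear peaks, and neither matched 18 (6.14%), against 4.04%. For peaks inside genes far from promoters the shares were 66.7% in replicate 1, 69.5% in replicate 2, 44.0% in both and 7.80% in neither. Across the 257 sites found in both full candidate lists, Pearson's r of log2 signal was 0.446 and Spearman's rho was 0.314. Across 1636 other nuclear peaks they were 0.635 and 0.503, and across 254 peaks inside genes 0.426 and 0.294. The points share the libraries and were selected on the pooled signal. Replicate 2 was higher at 219 of the 257, with a median log2 ratio of 0.67 (0.56 to 0.79), close to 0.75 at the other peaks.

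**Figure D1:**
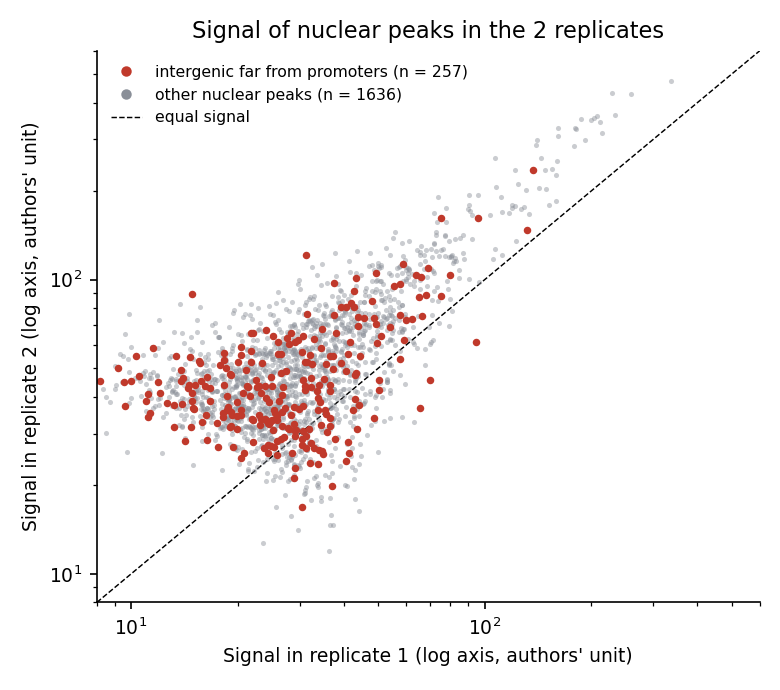
Signal of each nuclear peak in replicate 1 (x axis) and replicate 2 (y axis), both logarithmic and in the authors' unit, with 257 intergenic sites in red and 1636 other nuclear peaks in grey. Most points lie above the dashed line of equal signal, and most intergenic sites lie in the lower range; the highest, at 137 and 235.15, lies below the strongest other peaks on both axes.

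The highest sites were strong in both replicates. All of the 10 highest held places 49 to 194 by signal in replicate 1 and 44 to 231 in replicate 2. Of the 10, 6 lay between divergent protein-coding genes, beside 64 of all 293 sites (21.8%). The highest was at chrIV:991235, 783 bp upstream of egrh-2, which encodes a zinc finger protein of the EGR family. Its signal was 349 in the pool, 137 in replicate 1 and 235.15 in replicate 2. On III the highest was at chrIII:9617142, 672 bp upstream of hcp-3, which encodes the centromeric histone CENP-A. It had 258 in the pool, with 95.5 and 162 in the replicates. The site at chrI:3866642, 704 bp upstream of the CENP-C gene hcp-4, had 217, with 75.4 and 162. The site at chrIV:7477916, 536 bp upstream of the kinetochore gene rod-1 and 619 bp upstream of pycr-4, had 177, with 75.1 and 88.0. 

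Of the remaining high sites, chrI:8761136 lay 1348 bp upstream of tin-13, which encodes a mitochondrial import protein, and 1905 bp from the lamin gene lmn-1. It had 266, with 132 and 147 in replicates 1 and 2, and only 33.3% of its 31-base words were unique. The site 657 bp upstream of usp-4, a ubiquitin protease gene (chrIV:6756654), had 184, with 69.3 and 110. The site at chrI:13310846 lay between the 3' ends of pde-1, 41 bp away, and T04D3.8, 135 bp away. It had 170, with 65.9 and 102. The highest site of II, chrII:8933874, lay 75 bp downstream of the enolase gene enol-1 and 508 bp upstream of T21B10.3. It had 166, with 58.8 and 113. The site at chrII:12739482, 1148 bp upstream of the phosphatidylinositol synthase gene pisy-1, had 164, with 63.9 and 104. Chromosome V held no site of this strength. Its highest, chrV:13000248, 589 bp upstream of far-4, a fatty acid and retinol binding protein gene, had 118, with 39.2 and 80.6.

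At the lower end the sites ran into the candidates below the threshold without a gap. The lowest had a signal of 50.85 (chrV:12696976, nearest to K10C8.4), and the highest eligible candidate outside the list had 50.81 (chrII:13340081, nearest to mrpl-20). By distance, the closest site to a coding 5' end lay at 502 bp (T01C3.2, signal 97.2), and the first peak excluded on that ground at 500 bp (skn-1, 51.3). The closest to a named RNA gene lay at 257 bp (W07G1.23, 56.7), and the first excluded at 246 bp (the piRNA gene 21ur-11026, 107). The median distance to the nearest coding 5' end was 1329 bp, with quartiles of 793 and 2370 bp and a maximum of 12146 bp.

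Many sites lay just beyond the 3' end of a protein-coding gene. Of the 293, 117 lay within 250 bp downstream of one (39.9%, 34.5 to 45.6%). Of the 24.3 Mb of eligible sequence, 9.11% had that position. This position was examined after the sites had been seen. Per Mb of eligible sequence there were 57.6 sites 1 to 100 bp downstream (43.5 to 74.9, 56 sites) and 49.0 beyond that up to 250 bp (37.5 to 63.0, 61 sites). There were 19.3 farther out up to 500 bp (31 sites), 9.52 from there to 1000 bp (21 sites) and 6.78 farther away (5.64 to 8.08, 124 sites). Candidates were also denser there, with 447 per Mb within 100 bp and 224 per Mb beyond 1000 bp. The share of candidates in the thresholded list was 12.9% within 100 bp and lower in each bin farther out, at 3.03% beyond 1000 bp.

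**Figure D2:**
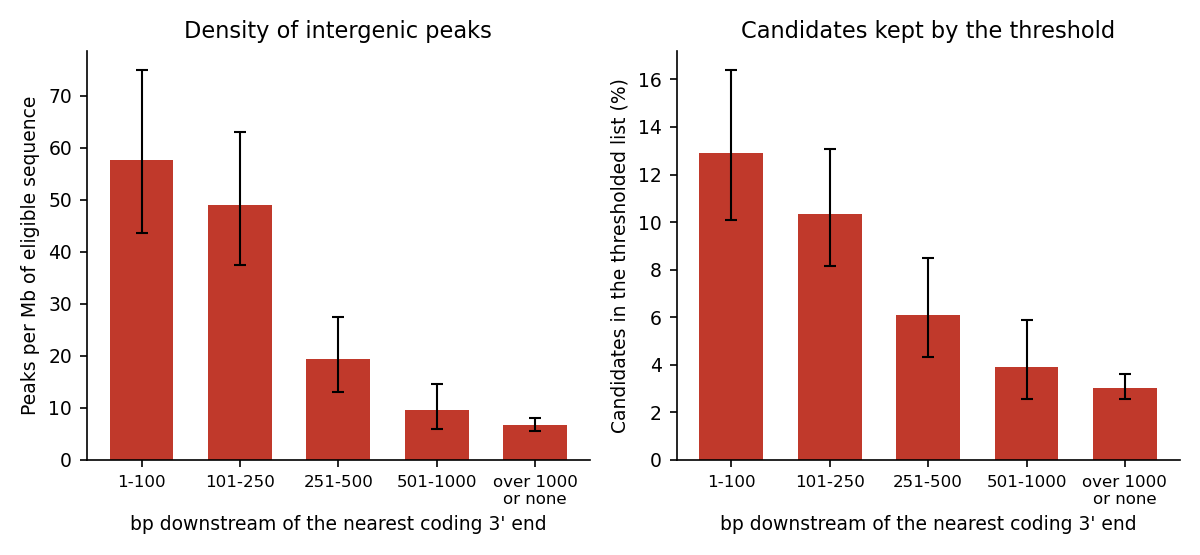
Left, intergenic sites per Mb of eligible sequence (y axis) by distance in bp downstream of the nearest protein-coding 3' end (x axis), with exact 95% Poisson intervals. Right, the percentage of pooled candidates at each distance that were in the thresholded list, with 95% Wilson intervals; both are highest within 100 bp, at 57.6 per Mb and 12.9%.

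The genes ahead of these sites were often bound at their promoters too. The 117 sites lay downstream of 140 genes, since some had a 3' end on either side. Of these 140 genes, 55 had a thresholded summit within 500 bp of their 5' end (39.3%, 31.6 to 47.6%), against 1406 of all 19973 protein-coding genes (7.04%). The median length of the 140 genes was 1968.5 bp, and that of all protein-coding genes 2027 bp. Transcription was not measured here, and whether these genes were highly expressed was not tested. The 117 sites had a median signal of 63.5 (maximum 170) and a median GC of 34.8%. They were matched equally in the replicates, at 66.7% in each. Of them 57 lay between converging genes and 60 between genes in tandem. Of the 117, 1 held GCGAGACC and 7 held AAAGGCGC, words described below. Over all 293 sites, 14 (4.78%) held GCGAGACC and 31 (10.6%) held AAAGGCGC.

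Ribosomal protein genes recurred at these places. A site lay within 250 bp downstream of 13 of 81 ribosomal protein genes (16.0%, 9.63 to 25.5%), against 140 of 19973 protein-coding genes (0.701%). These 13 sites made up 11.1% of the 117, while 0.256% of the eligible sequence at that position belonged to ribosomal protein genes. Their signals ran from 51.8 to 133 with a median of 74.6, and 10 were matched in replicate 1 and 12 in replicate 2. Of the 13 genes, 8 had a promoter peak as well. The list of ribosomal protein genes was chosen with earlier results on their promoters known. By nearest 5' end, 13 of the 293 sites were assigned to these genes (4.44%, 2.61 to 7.44%), against 0.194% of eligible bases and 2.84% of all nuclear peaks.

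The highest of them was 108 bp downstream of rps-6 (chrI:13953311), a gene of the small subunit, with 133 in the pool, 57.7 in replicate 1 and 75.7 in replicate 2. The site at chrIII:6373978 lay 119 bp downstream of rps-13 and 74 bp downstream of thoc-2, a THO complex gene that converges on it. It had 130, with 62.3 and 73.3. The site 195 bp downstream of rpl-31, a gene of the large subunit (chrI:13652754), had 127, with 42.6 and 80.6, and lay 27 bp past the end of the lincRNA gene linc-1. The site at chrI:9624776 lay 52 bp downstream of T05F1.2 and 273 bp downstream of rps-19, which converges on it. It is among the 117 sites through T05F1.2 but not among the 13 at ribosomal protein genes, and it had 104, with 57.8 and 53.8. At the low end, the site downstream of rpl-21 had 51.8, with 11.1 and 34.2, and was outside the top regions of replicate 1.

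Other sites at 3' ends included the following, 4 of which were chosen after their values were seen. The site at chrIV:17281426 lay 96 bp downstream of hsp-1, the constitutive Hsp70 gene, and 29 bp downstream of nra-1, which converges on it. It had 156 in the pool and was higher in replicate 1, at 94.6, than in replicate 2, at 61.4. The site at chrIII:10506038, between urm-1 and the small heat shock protein gene sip-1, had 131, with 37.5 and 97.6. A site 63 bp downstream of ama-1, which encodes the largest subunit of RNA polymerase II, had 55.0. A site 19 bp downstream of the P granule gene pgl-1 had 63.9. These 4 stand for no group of genes. All 3 sites nearest to histone genes were at 3' ends, 1 downstream of his-61 (signal 72.0) and 2 downstream of genes that carry the symbol his-47 (63.7 and 52.7).

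Upstream positions were also more frequent among the sites than in eligible sequence, to a smaller degree. Within 1000 bp upstream of a protein-coding 5' end lay 89 sites (30.4%, 25.4 to 35.9%), against 17.7% of eligible bases. Of these, 23 were also within 250 bp of a 3' end. Within 2000 bp upstream lay 158 sites (53.9%, 48.2 to 59.5%), against 40.1% of eligible bases. Neither position applied to 110 sites (37.5%), against 74.9% of eligible bases. The 89 upstream sites had a median signal of 66.2 and the 117 downstream sites 63.5, so the groups had medians close to each other. The 4 sites with a signal over 200 were all away from 3' ends. Top regions of replicate 2 matched 80.9% of the upstream sites and 66.7% of the downstream ones, while in replicate 1 the shares were 67.4% and 66.7%.

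**Figure D3:**
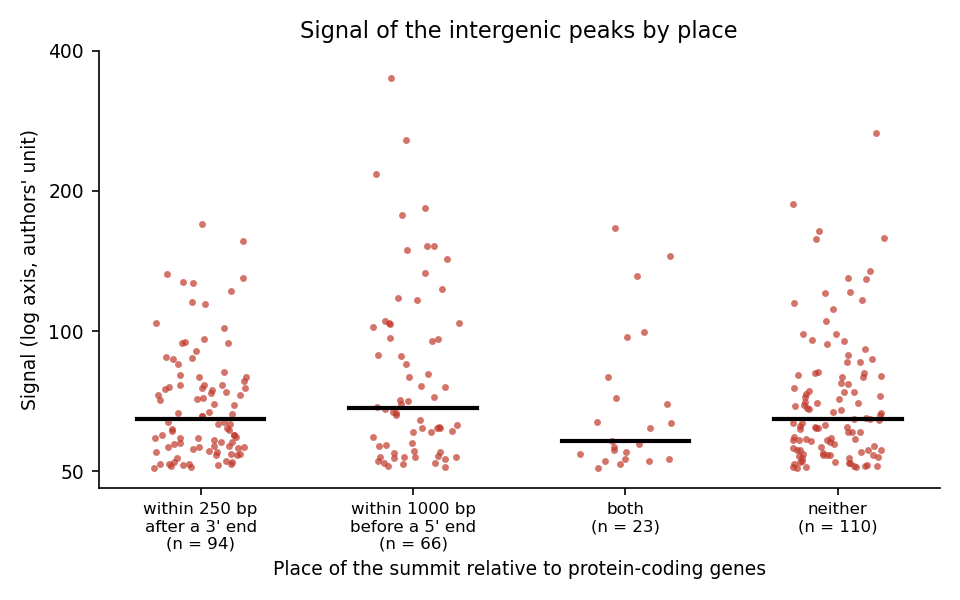
Signal of each intergenic site (y axis, logarithmic, authors' unit) by the place of its summit, with the black line at the median of each group. Sites near both a 3' end and a 5' end are shown apart; groups overlap throughout, and the highest site, at 349, lies before a 5' end.

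By orientation of the neighbouring protein-coding genes, 67 sites lay between converging genes (22.9%, 18.4 to 28.0%), against 12.2% of eligible bases. Another 64 lay between diverging genes (21.8%), against 33.0%, and 162 between genes in tandem (55.3%), against 54.8%. Of the 67, 57 were among the 117 sites within 250 bp downstream of a 3' end, and 0 of those 117 lay between diverging genes. Orientation is therefore largely the same observation as the 3' end position, and the values below are not separate from it. Median signals were 66.6, 68.5 and 62.1 in that order. The converging group had the lowest median GC, 33.8%, which was 39.8% in the diverging and 38.8% in the tandem group. In replicate 2, 67.2% of the converging, 87.5% of the diverging and 74.1% of the tandem group were matched. In replicate 1 the shares were 64.2%, 65.6% and 63.6% in the same order. Over all 293 sites GC averaged 38.5%, against 34.0% of eligible bases.

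Genes of noncoding RNAs that the rule does not name accounted for few sites. Within 250 bp of the 5' end of such a gene lay 12 sites (4.10%, 2.36 to 7.02%), against 3.74% of eligible bases. Of these, 8 were at genes of the general class ncRNA (2.73%, against 3.46% of bases) and 4 at lincRNA genes (1.37%, 0.532 to 3.46%, against 0.134%). None was at a miRNA gene, where 0.161% of eligible bases lie. After K08B5.8, the highest were linc-1 (127, the rpl-31 site above), C26C6.14 (chrI:7519087, signal 105, with 34.7 and 67.8) and C15H11.17 (chrV:14396310, 72.1, with 36.5 and 34.0). The other lincRNA genes were Y54G11A.20 (62.3), Y48C3A.1 (57.3) and linc-91 (53.1).

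Few sites lay in repeated sequence. Under 50% of the 31-base words within 100 bp were unique at 12 sites (4.10%, 2.36 to 7.02%), against 13.51% of eligible bases and 1.63% of other nuclear peaks. After chrI:8761136, the highest were 583 bp upstream of the ubiquitin ligase gene eel-1 (chrIV:3050687, signal 102, 18.1% unique), upstream of F53F8.7 (chrV:20699019, 85.2, 22.2%) and 1613 bp upstream of the synaptobrevin gene snb-1 (chrV:6658114, 77.2, 45.03%). Reads from such sequence may belong to another copy.

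The sites were unevenly spread over the chromosomes. Per Mb of eligible sequence, X had 4.48 (exact Poisson interval 2.96 to 6.53, 27 sites) and the autosomes 14.5 (12.8 to 16.4, 266 sites). Chromosome I had 19.2, II 12.2, III 18.9, IV 18.2 and V 8.31, with intervals of X and V that overlap. Candidates differed less, with 223 per Mb on X and 263 per Mb on autosomes, and 2.01% of those on X were in the thresholded list against 5.52% on autosomes. The low density on X was not particular to the intergenic sites. All nuclear peaks together had 11.6 per Mb of chromosome length on X, 15.2 on V and 22.7 on autosomes. Promoter peaks numbered 12 on X and 989 on autosomes. Of the 27 intergenic sites on X, 3 were the cluster at K08B5.8. The central one of 3 equal lengths of each chromosome held 122 sites (41.6%, 36.1 to 47.4%), against 33.6% of eligible bases. On IV, 15 of 64 sites lay inside the 2 known clusters of piRNA genes (23.4%, 14.7 to 35.1%), where 25.2% of its eligible bases lie.

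**Figure D4:**
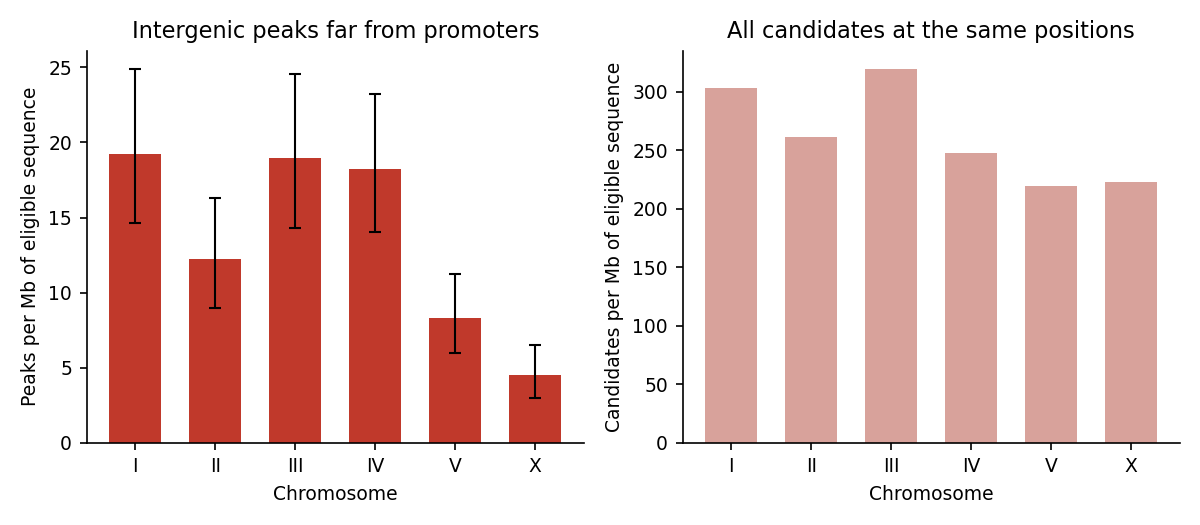
Left, intergenic sites per Mb of eligible sequence (y axis) on each chromosome (x axis), with exact 95% Poisson intervals. Right, pooled candidates per Mb of the same sequence; X is lowest on the left, at 4.48, while its 223 candidates per Mb are close to the 220 of V.

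Words found earlier at summits of this whole set of peaks were counted at the intergenic sites. The sites were part of that set, so these counts are a description. AAAGGCGC was at 31 sites (10.6%, 7.55 to 14.6%), in 9 of 586 flanking windows (1.54%) and in 0.796% of eligible windows. The share at promoter peaks was 11.0%, and that near small RNA 5' ends 1.20%. GCGAGACC was at 14 sites (4.78%, 2.87 to 7.86%), in 9 flanking windows (1.54%) and in 0.648% of eligible windows, while promoter peaks had it at 10.7%. Of the 14 sites with GCGAGACC, 7 also held AAAGGCGC. GTACGGTA was at 11 sites (3.75%) and in 2 flanking windows (0.341%), with 0.665% of eligible windows and 6.49% of promoter peaks. GCAAACAC was at 12 sites (4.10%) and in 8 flanking windows (1.37%), with 0.801% of eligible windows and 7.99% of promoter peaks. AAACGCGC was at 5 sites (1.71%) and in 5 flanking windows (0.853%), with 0.452% of eligible windows and 7.59% of promoter peaks. The intervals of sites and flanks overlapped for GCGAGACC, GCAAACAC and AAACGCGC. They did not overlap for AAAGGCGC and GTACGGTA. No word contains another, and each was counted on both strands.

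Sites with AAAGGCGC had a median signal of 75.4 (range 52.1 to 177), and 24 of 31 were matched in replicate 1 and 26 in replicate 2. The site between rod-1 and pycr-4 printed above was the highest of them. None of the 31 was on X, where 27 of all 293 sites lay. Sites with GCGAGACC and sites with GTACGGTA also had 0 on X. GCGAGACC lay closer to the summit, with 12 of its 14 copies centred within 50 bp, against 18 of the 34 copies of AAAGGCGC.

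Words of other factors and of tRNA promoters were near their flanks. GGTTCGA, the core of the tRNA B box, was at 9 sites (3.07%, 1.62 to 5.73%), in 13 flanking windows (2.22%) and in 1.44% of eligible windows, while 41.7% of peaks near small RNA 5' ends had it. TGGCNNAG, the core of the A box, was at 18 sites (6.14%) and in 45 flanking windows (7.68%), with 4.96% of eligible windows. CTGTTTCA, known upstream of worm piRNA genes, was at 3 sites (1.02%) and in 5 flanking windows (0.853%), with 1.28% of eligible windows. GAGAGAGA was at 13 sites (4.44%), in 3.24% of flanking windows and in 1.69% of eligible windows. CACGTG was at 14 sites (4.78%), in 3.92% of flanking windows and in 2.78% of eligible windows. The word TGATAA was at 40 sites (13.7%), in 16.4% of flanking windows and in 17.5% of eligible windows. A run of 8 T was at 70 sites (23.9%), in 20.6% of flanking windows and in 25.9% of eligible windows. For all of these words the intervals of sites and flanks overlapped.

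Without a list, the 8-base words commonest within 50 bp of the summits relative to flanks 500 to 600 bp away were ranked, as a description chosen after the fact. AAAGGCGC ranked first, with 17 sites against 6 of 586 flanks. AAGGCGCA, GCCTTTAA and CGCCTTTA, which overlap it on 1 strand or the other, were also among the first 10. CGGAACCC had rank 4, with 12 sites against 2 flanks, and GCGCGGAA and GCGGAACC overlap it. GCGGCCGA was at 11 sites and in 0 flanks, and GCGCGAAA at 10 sites and in 1. The reverse complement of GCGGCCGA, TCGGCCGC, overlaps TGTCGG after CGGAACCC in printed windows such as that at chrX:13947028. It is not a separate observation there.

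Sites often had another peak nearby, about as often as other peaks did. Another thresholded summit lay within 2000 bp of 64 sites (21.8%, 17.5 to 26.9%) and of 24.5% of other nuclear peaks. The sites formed 5 clusters among themselves within 2000 bp, with 12 sites in all. Besides the cluster on X, 3 sites lay within 952 bp of each other on III, between ckr-2 and M01E10.5, with signals of 66.8, 63.6 and 70.3. On II a pair 1391 bp apart downstream of DH11.2 had 158 and 52.1.

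Of the gene lists compared by nearest 5' end, only ribosomal protein genes had more than 2% of the sites. Histone genes had 3 (1.02%, 0.349 to 2.97%), against 0.139% of eligible bases. Chemoreceptor genes had 5 (1.71%, 0.731 to 3.93%), against 4.09% of eligible bases, led by srh-286 (75.2). Nuclear hormone receptor genes had 3 (1.02%, against 1.92%), led by nhr-86 (88.9). F-box genes had 3 (1.02%, against 1.20%), led by fbxb-76 (80.4). C-type lectin genes had 2 (0.683%, against 0.664%), led by clec-169 (152, with 55.4 and 95.1), and neuropeptide genes 2 (0.683%, against 1.63%), led by nlp-40 (96.0). Collagen genes had 1 (0.341%, against 0.622%) and major sperm protein genes 1 (0.341%, against 0.133%), msp-50 (87.1). Homeobox genes had 0 of 293, which allows up to 1.29% by the Wilson interval, where 1.04% of eligible bases lie.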

How the data were processed

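ChIP-seq peak lists of 2 biological replicates were used as the authors deposited them. Per the deposited notes, the candidate lists (30000 regions each, 1 per replicate and 1 pooled) derive from alignments and a control alignment. The authors thresholded them by irreproducible discovery rate (IDR) into an optimal list. Peak caller, aligner and read filters: not given in the sources used here. A deposited signal value for each region has no stated scale. The deposited score column was not used further, and the summit is the authors' offset from the region's start. Lists on ce10 and the control were not analysed here. Coordinates are ce11 (WBcel235), 1-based, and no nuclear region ran past a chromosome end of the RefSeq genome. Genes came from Ensembl release 115.

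Members were found by position, and counts, medians, Wilson, exact Poisson and order-statistic intervals were computed with Python 3.11.15, NumPy 2.4.6, pandas 2.3.3 and SciPy 1.17.1. Similarity used blastn 2.17.0 and figures matplotlib 3.10.9. Eligible sequence is every nuclear base that meets the rule, 24.3% of the genome. One group gives no contrast, so no test was run. The replicates' agreement measures the spread between these 2 samples. The functions were tested on simulated data. The members, words and gene lists were chosen with earlier results of these data known. Positions at 3' ends, orientation, chromosome centre, the following word and the word ranking were chosen after the sites were seen.

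Sites named are the 10 highest, the highest of each chromosome, the 4 highest of each kind (near another noncoding RNA, similar to a small RNA gene, in repeated sequence, nearest to a listed gene), the lowest and those next to the limits. Sites named for CGGAACCC, a shared snoRNA match, a cluster or a 3' end were added afterwards. Alternatives were a stricter list of 1000 regions, single replicates, other distances, windows and matches.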

Additional observations from a re-analysis of the deposited data

How the results depend on the processing

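Of 69 settings tried on these results, 47 left the value within its interval, or the count within 1.5 times, and 22 did not; the cause was not tested. The 1000 highest pooled regions gave 105 sites with a median signal of 96.0. Of these, 92.4% were matched in replicate 1 and 98.1% in replicate 2, 8.57% had another peak within 2000 bp, and none was nearest to a collagen or histone gene (0% each). There were 0.664 sites per Mb on X and 5.52 on autosomes. Distances of 250 and 1000 bp to coding 5' ends gave 499 and 185 sites, and 22.5 and 11.2 per Mb on autosomes. Matching to all candidate regions gave 90.8% in replicate 1 and 95.9% in replicate 2. A window of 500 bp put 8.19% at other noncoding 5' ends, 51-base words put 2.05% in repeated sequence, a hit of at least 50 bp left 3.07% similar to a small RNA gene, and 10000 bp put another peak near 55.6%. With 1 replicate left out, the number of sites ranged from 290 to 293 and the median signal from 28.5 to 42.4, on the scale of the single lists. A near-equal number does not mean the same sites. The top regions of replicates 1 and 2 matched 64.2% and 75.4% of the 293. The share within 250 bp of a 3' end ranged from 34.5% to 43.4%, lower without replicate 1 (setting added after seeing the data). Sites per Mb ranged from 3.99 to 5.48 on X and from 14.2 to 14.5 on autosomes. The other shares ranged from 25.5% to 31.7% upstream of a 5' end, 4.48% to 4.78% at other noncoding 5' ends, 3.41% to 4.14% in repeated sequence, 5.17% to 6.48% similar to a small RNA gene, 4.48% to 5.46% with GCGAGACC and 17.6% to 19.8% with another peak within 2000 bp. No paired analysis was possible because there was only 1 group. With 2 replicates, no read counts and no stated scale, the lists cannot show weak or broad signal. A site just under the threshold is not shown to be unbound.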
